A study of Mus musculus with 4 samples.

Results

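Kinesins and tubulins were examined in RNA of inner-ear cells sorted from newborn mice. The members were all genes of the table whose symbol is that of a kinesin heavy chain or of an alpha, beta, gamma, delta or epsilon tubulin, which gave 42 of 12814 genes, 30 kinesins and 12 tubulins. All cells came from *Atoh1/nGFP* mice on a C57BL/6 background, in which an *Atoh1* enhancer drives a nuclear green fluorescent protein in hair cells (HCs), the mechanosensory cells of the ear. HCs were sorted as cells with the fluorescent protein and the epithelial surface protein CD326, and epithelial non-sensory cells (ENSCs) as cells with CD326 alone. Both were taken from the cochlea, which serves hearing, and from the vestibular system, which serves balance, and the 4 populations gave 1 library each, with the ears of several mice pooled. ENSCs are thus a mixed population, defined by what they lack.

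Microtubules are hollow polymers of alpha- and beta-tubulin, nucleated from rings that contain gamma-tubulin, and alpha- and beta-tubulin are each encoded by several genes with nearly the same coding sequence. Kinesins are motor proteins that walk along microtubules with a cargo, carry the building material of cilia to the ciliary tip, take microtubules apart at their ends, or move chromosomes and build the spindle in dividing cells. HCs of newborn mice carry a single true cilium, the kinocilium, beside the actin-based stereocilia, and have a dense array of microtubules in the cell body, whereas the surrounding epithelial cells have primary cilia and, among supporting cells, large microtubule bundles.

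The values were quantile-normalized read counts with a floor of 20, called signals here. They are not divided by gene length, so that levels were compared between genes only per kilobase of exons. With 1 library per population no difference could be set against a replicate spread, no p-values are given, and a gene was called where its signals were at least 3-fold apart. In such bulk libraries fewer cells of a type and less RNA per cell cannot be told apart. In 3 libraries the lowest signals formed a band of ties, with its top at 24.25 in cochlear HCs, 22.75 in cochlear ENSCs and 30.5 in vestibular HCs, and in vestibular ENSCs such values lay at 20 alone. Signals inside the band carry no rank, and a fold against one of them is given as a lower bound computed from the top of the band, whereas counts of called genes take such values as deposited. Of the 42 members, 26 lay above the band in all 4 libraries, 29 reached a signal of 100 in 1 or more libraries, and 13 stayed under 100 throughout. The annotation holds 63 genes that match the rule, and 21 of them (14 kinesin and 7 tubulin genes, among them *Tubb3*, *Tuba8*, *Kif17* and *Kifc1*) have no row among the genes analysed here.

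The HC libraries bore the marks of their label, and the ENSC libraries did so more clearly in the cochlea than in the vestibular system. All 6 HC markers examined (*Pou4f3*, *Gfi1*, *Myo7a*, *Otof*, *Tmc1* and *Lhfpl5*) were at least 3-fold higher in HCs of both organs, and each had a signal of at most 20.25 in vestibular ENSCs. Of 5 markers of supporting and other epithelial cells, 5 were at least 3-fold lower in HCs of the cochlea and 2 (*Epyc* and *Epcam*) in those of the vestibular system. *Epcam* encodes CD326, for which both populations were sorted. In the vestibular system *Tectb* was higher in HCs (2435.5 against 1507 in ENSCs), *Sparcl1* was at 4025 and 3931, and *Otogl* at 693 and 816. Vestibular ENSCs also held the highest signals of genes typical of other cells: *Kdr* of the endothelium was at 1462 there and at most 29.75 elsewhere, *Col1a1* of mesenchyme at 512 and at most 58.25 elsewhere, *Sox10* of glia at 1183 and at most 203 elsewhere, and *Mki67* of dividing cells at 414 and at most 29 elsewhere. Of 16 genes of dividing cells 11 peaked in that library, 4 in vestibular HCs and 1 in cochlear ENSCs. All 3 mesenchymal markers and the 1 endothelial marker in the table peaked there, and the summed signal of the mesenchymal markers was 1091 against 67.5 to 125 in the other libraries. Of the 4 glial markers, 2 peaked in vestibular ENSCs (*Sox10* and *Mbp*, the latter at 303) and 2 did not. The vestibular ratios of all genes moreover fell with GC content (Spearman's rho = -0.395 over the 10358 genes that exceeded the floor in HCs and ENSCs), and the cochlear ones hardly did (rho = -0.0400 over 10722 genes). Both sorted populations were gated on CD326, which should remove cells that are not epithelial, endothelium, mesenchyme and glia among them. The part of these cells and of GC content in the vestibular values below was not tested, and the ratios after correction for exonic length and GC content are given for the members whose call they change and as counts for the lists of microtubule genes.

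The comparison of HCs with ENSCs within each organ asks which motors and tubulins set the sensory cells apart. In the cochlea 9 members were at least 3-fold higher in HCs, where 8.39% of all genes were, and 5 were at least 3-fold lower, where 9.2% of all genes were. Of the members, 8 were higher and 8 lower in vestibular HCs, against 13.8% and 14.3% of all genes. As deposited, 9 kinesins and 0 tubulins were higher in cochlear HCs, and 7 kinesins and 1 tubulin in vestibular HCs. The difference between the 30 kinesins and the 12 tubulins was not tested. Among the lower genes were 2 kinesins and 3 tubulins of the cochlear comparison and 3 kinesins and 5 tubulins of the vestibular one. Called in the same direction in both organs were *Kif27*, *Kif9*, *Kif24* and *Kif26b* as higher (4 members, where 4.99% of all genes were) and *Kif1c*, *Tuba1c*, *Tubb4a* and *Tubb5* as lower (4 members, where 4.66% of all genes were). The median log2 ratio of the 30 kinesins was 0.42 for the cochlea and 0.63 for the vestibular system, that of the 12 tubulins 0.06 and -0.68, and that of all genes 0 and -0.0045. With the correction for length and GC content the vestibular median of the 12 tubulins turned positive, at 0.22, beside 0.84 for the kinesins and 0.11 for all genes. Tubulins near the floor enter that median. For the 9 tubulins with 100 or more in any library it was -3.06 as deposited and -2.13 corrected, and a gene can pass that filter by its ENSC signal alone. The corrected cochlear medians were 0.29 for the 12 tubulins, 0.38 for the kinesins and 0.09 for all genes. Past the threshold 2 tubulins were then higher and 5 lower in vestibular HCs, where 14.6% and 10.2% of all genes were, and 1 was higher and 2 lower in cochlear HCs, where 8.97% and 8.41% were.

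**Figure D1:**
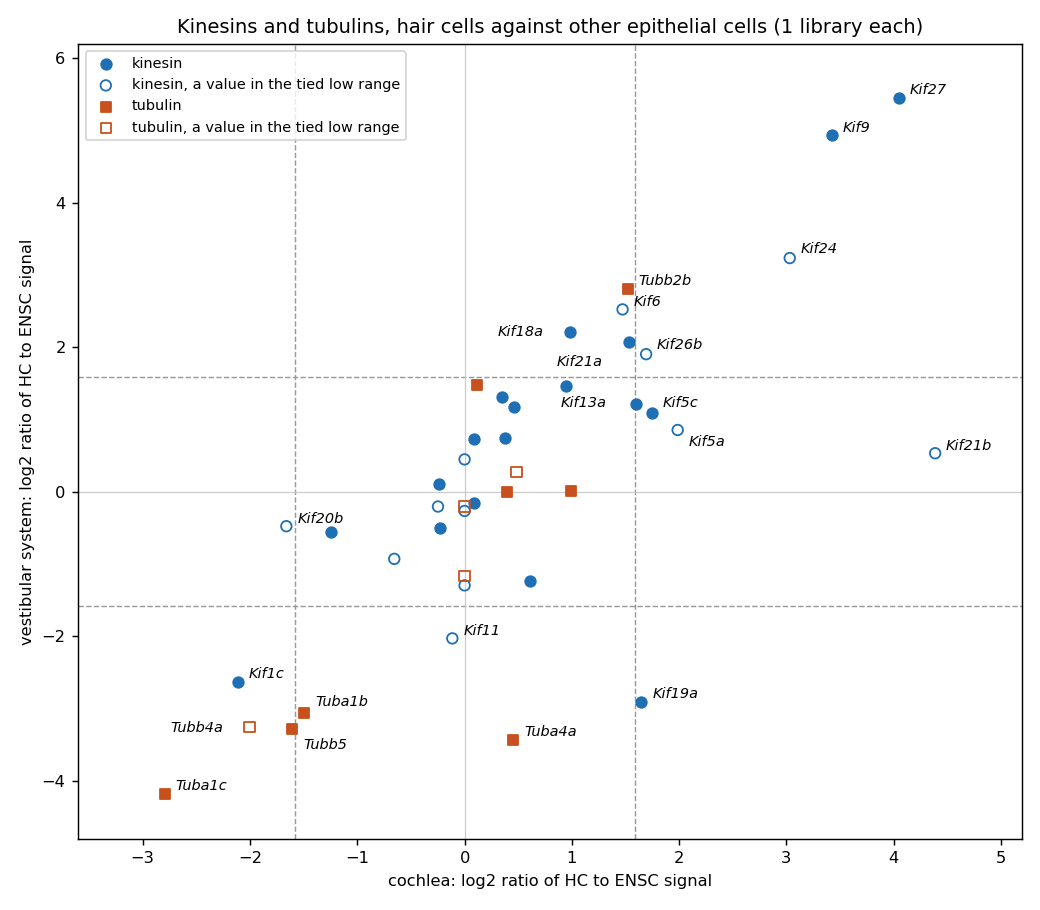
Each point is 1 of the 42 members, placed by its log2 ratio of HC to ENSC signal in the cochlea (x axis) and in the vestibular system (y axis), 1 library per population; dashed lines mark 3-fold, and open symbols have 1 or more signals in the band of ties, so that their place is only approximate. *Kif27*, *Kif9* and *Kif24* lie farthest to the upper right, *Kif19a* is higher in cochlear HCs and lower in vestibular HCs, and 5 tubulins lie at the bottom.

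Kinesins of cilia held the largest vestibular ratios as deposited. *Kif27* (NCBIM37 chr13:58388877-58456223, minus strand), a kinesin related to the Hedgehog-pathway kinesin *Kif7* and needed for motile cilia, had signals of 645 in cochlear HCs, 39 in cochlear ENSCs, 1164 in vestibular HCs and 26.5 in vestibular ENSCs. It was 16.5-fold higher in cochlear HCs and 43.9-fold higher in vestibular HCs, the largest vestibular ratio of all members as deposited. *Kif9* (chr9:110379462-110427683, plus strand of the same build), a kinesin of the axoneme, was at 288 and 26.75 in cochlear HCs and ENSCs and at 749 and 24.5 in vestibular HCs and ENSCs, which gave 10.8-fold and 30.6-fold. Both genes were thus low in both ENSC libraries and higher in vestibular than in cochlear HCs, by 1.8-fold for *Kif27* and 2.6-fold for *Kif9*, which is below the threshold. Exons of *Kif27* overlap a gene on the opposite strand, Gm16613, over 7.44% of their length, and whether the counts used strand is not stated.

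*Kif24* and *Kif6* followed the same direction at lower levels. *Kif24* encodes a kinesin that remodels the microtubules of the mother centriole, the base of the cilium, and its signals were 176 and 21.5 in the cochlea (HCs, then ENSCs) and 264 and 28 in the vestibular system. The HC signal exceeded that of ENSCs by at least 7.73-fold in the cochlea and by 9.43-fold in the vestibular system. *Kif6*, which belongs to the same kinesin family as *Kif9*, had 55.5 and 115 in cochlear and vestibular HCs and lay at the floor in both ENSC libraries, so that it was at least 2.44-fold and at least 5.76-fold higher. Its cochlear ratio did not reach the threshold. With every signal under 100 raised to 100 the calls of *Kif24* in both organs (log2 ratios 0.81 and 1.40), of *Kif9* in the cochlea (1.52) and of *Kif6* in the vestibular system (0.20) were lost, and those of *Kif27* in both organs and *Kif9* in the vestibular system were not.

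The upstream sequences of *Kif9* and *Kif24* are shown because both genes lie far to one side in both organs and because their starts share a short run of letters. Promoters, from 250 bases before to 50 after each start site, were taken from RefSeq (GRCm38.p6), which held 32 of the 42 members and had no entry for *Kif19a*, *Kif21b* or *Tubb2b*. They were searched on both strands for GTTGCC, an arm of the X-box that RFX factors bind. The capitals mark that run in 80 bases of 3 members, each read along the gene's own strand (*Kif9* at chr9:110476934-110477013, plus strand; *Kif24* at chr4:41464808-41464887, minus strand; *Kif18a* at chr2:109280635-109280714, plus strand).
Kif9: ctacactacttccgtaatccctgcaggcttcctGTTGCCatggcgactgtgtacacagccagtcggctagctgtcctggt
Kif24: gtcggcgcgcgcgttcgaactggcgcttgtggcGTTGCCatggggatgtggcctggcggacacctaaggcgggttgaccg
Kif18a: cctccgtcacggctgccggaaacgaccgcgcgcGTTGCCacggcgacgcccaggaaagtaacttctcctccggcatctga

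The run began 27 bases before the start site in *Kif9* (the second of its 2 start sites in that table), 6 before it in *Kif24* and 70 before it in *Kif18a*. Counted by gene over any of its start sites, GTTGCC stood in 10 of the 32 members (31.2%) and in 14.1% of the 27025 genes of the promoter table. Of the 9 members at least 3-fold higher in HCs of either organ with a promoter entry, 3 held it (*Kif9*, *Kif24* and *Kif18a*), and so did 1 of 8 that were lower (*Tuba1c*) and 6 of the other 15. In *Kif9*, *Kif24* and *Kif18a* this run was followed after any 2 bases by GG, and this longer run, GTTGCCNNGG, which includes the shorter one and was written down after these promoters had been read, stood in 4 of the 32 members (the fourth was *Kif23*) and in 2.59% of all genes of that table. *Kif27* and *Kif6* had no match in this window. A match of letters is a description of the sequence and does not show that a factor binds there.

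The motors of intraflagellar transport itself moved less. *Kif3a* and *Kif3b* encode the motor subunits of heterotrimeric kinesin-2, which carries material towards the ciliary tip. *Kif3a* signals were 1586 in cochlear HCs, 1246 in cochlear ENSCs, 1735 in vestibular HCs and 697 in vestibular ENSCs, so that it was 2.49-fold higher in vestibular HCs and 1.27-fold higher in cochlear HCs. *Kif3b* ranged only from 136 to 213 over the 4 libraries. Their accessory subunit *Kifap3* moved more than either motor in the vestibular system: its signals were 1796 and 980.25 in cochlear HCs and ENSCs and 3236 and 355 in vestibular HCs and ENSCs, a vestibular difference of 9.12-fold. *Kif3c*, the alternative partner of *Kif3a*, stayed between 97 and 161. *Kif7*, which acts in Hedgehog signalling at the ciliary tip, did not exceed 23.75 in any library.

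The intraflagellar transport particles and their dynein, the cargo trains and return motor of the same pathway, were 25 genes in the table. In the vestibular system 15 of them were at least 3-fold higher in HCs and 0 lower, with a median log2 ratio of 1.98, and in the cochlea 5 were higher and 1 lower, with a median of 0.81. With the correction 18 were higher and 1 lower in vestibular HCs, and the cochlear counts were again 5 and 1. The largest vestibular ratios among them as deposited were those of *Ttc26*, with 296 in HCs and 21.75 in ENSCs, *Ift74*, with 2135 and 156, and *Ttc30b*, with 1427 and 116. *Ttc21b*, a subunit of the particle used on the way back, was the lower cochlear gene, at 66.5 in HCs and 210.25 in ENSCs.

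*Kif19a* was the cilium kinesin called in opposite directions in the 2 organs. It encodes a kinesin that shortens microtubules and limits the length of motile cilia (NCBIM37 chr11:114626702-114652053, plus strand). Its signals were 296 in cochlear HCs, 94.5 in cochlear ENSCs, 257 in vestibular HCs and 1925 in vestibular ENSCs. In the 2 HC libraries it differed by 1.15-fold, and in vestibular ENSCs it was 20.4-fold higher than in cochlear ENSCs. *Kif19a* was therefore 3.13-fold higher in HCs than in ENSCs of the cochlea and 7.48-fold lower in HCs of the vestibular system. Its exons hold 59.3% GC against a median of 48.8% over all genes, and after correction for length and GC content the vestibular log2 ratio was -1.72 in place of -2.90, still past the threshold. The cochlear log2 ratio of 1.65 lay close to the threshold and was under it with a pseudocount of 20 (1.46) or with signals under 100 raised to 100 (1.57). The vestibular ENSC library that holds this signal is the one with the highest *Kdr*, *Col1a1*, *Sox10* and *Mki67*, and the part of such cells in the *Kif19a* signal was not tested.

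**Figure D2:**
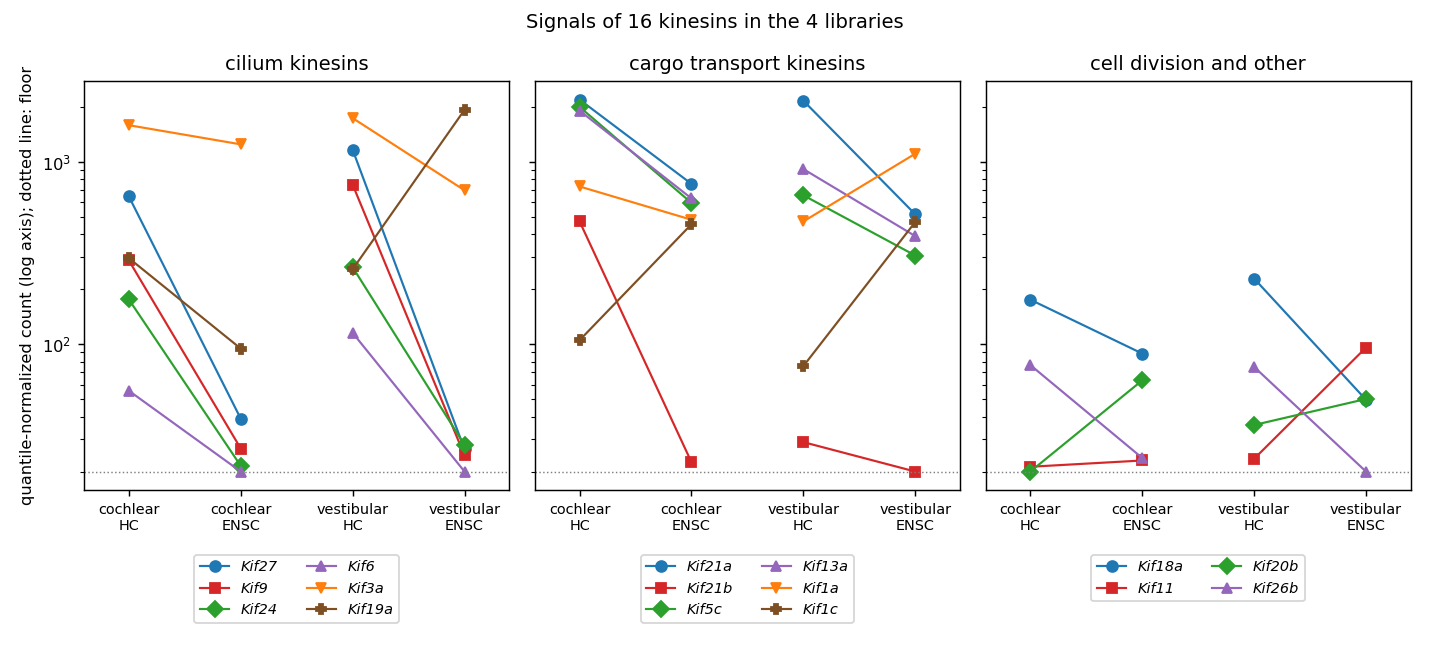
Signals (quantile-normalized counts, log axis) of 16 kinesins in the 4 libraries, grouped by role, with lines joining the HC and ENSC library of an organ and a dotted line at the floor of 20. *Kif27*, *Kif9* and *Kif24* drop from HCs to ENSCs in both organs, *Kif19a* drops in the cochlea and climbs to 1925 in vestibular ENSCs, and *Kif21b* is above 30 in cochlear HCs alone.

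Among the motors of cargo transport, *Kif21b* was the member that most separated the 2 kinds of HCs. *Kif21b* and *Kif21a* encode related kinesins that also restrain microtubule growth, and *Kif21b* (NCBIM37 chr1:138027966-138074575, plus strand) is known as a neuronal motor. *Kif21b* had a signal of 471 in cochlear HCs, 22.5 in cochlear ENSCs, 29 in vestibular HCs and 20 in vestibular ENSCs, and the last 3 values lay inside the bands of ties. Its signal in cochlear HCs exceeded that in cochlear ENSCs by at least 20.7-fold and that in vestibular HCs by at least 15.4-fold. *Kif21a*, in contrast, was at 2191 in cochlear HCs and 2161 in vestibular HCs. Against ENSCs, at 756 and 515, *Kif21a* was 2.9-fold higher in the cochlea, just short of the threshold, and 4.2-fold higher in the vestibular system.

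The 3 conventional kinesin heavy chains had distinct patterns. *Kif5b*, the form found in most cells, was the highest of all kinesins in cochlear HCs, cochlear ENSCs and vestibular HCs, at 639, 492 and 719 signal per kilobase of exons, and stood at 430 in vestibular ENSCs, below the 473 of *Kif19a*. *Kif5c*, a form abundant in neurons, had signals of 1998 in cochlear HCs, 595 in cochlear ENSCs, 655 in vestibular HCs and 306 in vestibular ENSCs. Cochlear HCs exceeded each of the other libraries in *Kif5c*, by 3.36-fold over cochlear ENSCs and 3.05-fold over vestibular HCs. *Kif5a*, the other neuronal form, was low throughout but had the same order in HCs, with 79.25 in cochlear and 36.25 in vestibular HCs and 20 in both ENSC libraries, which made it at least 3.48-fold higher in cochlear HCs than in cochlear ENSCs. Of 6 neuronal markers in the table, 3 were at least 3-fold higher in cochlear HCs and 5 in vestibular HCs. Their summed signal was 9641 in cochlear HCs, 5274 in cochlear ENSCs, 10287 in vestibular HCs and 442 in vestibular ENSCs, and *Nefl*, for instance, was at 2381 in cochlear and 2470 in vestibular HCs. *Isl1*, which HCs and neurons of the ear share, held most of the cochlear ENSC sum, at 4976 there against 3682 in cochlear HCs, and *Ntrk3* was also the lower one in cochlear HCs, at 20 against 25.75. Without *Isl1* the sums were 5958.5, 298, 7330 and 103 in the same order. The sort kept cells with CD326 only, a gate meant to remove neurons, and the part of neuronal RNA in the HC signals of these motors was not tested. Between the 2 kinds of HCs, *Kif5c* and *Kif21b* were the 2 members at least 3-fold higher in the cochlea, where 4.21% of all genes were, and *Tubb4b* was the 1 member at least 3-fold lower, where 5.09% of all genes were. These 3 were called after correction too, where 4.6% of all genes were higher and 4.52% lower.

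The kinesin-3 motors went in different directions. *Kif13a*, a motor of endosomes, was higher in HCs of both organs, with 1906 against 629 in the cochlea (3.03-fold) and 911 against 391 in the vestibular system (2.33-fold), and its corrected vestibular log2 ratio of 1.69 was past the threshold. *Kif1a*, which carries precursors of synaptic vesicles, was at 732 in cochlear HCs, 481 in cochlear ENSCs, 471 in vestibular HCs and 1107 in vestibular ENSCs, so that the ENSC library was the higher one in the vestibular system only. Its vestibular log2 ratio was -1.23 as deposited and -0.47 with the correction. *Kif1c*, a motor of membrane traffic, was the 1 kinesin called lower in HCs of both organs. It was at 105 in HCs and 454 in ENSCs of the cochlea and at 75.75 and 468 in those of the vestibular system, which is 4.33-fold and 6.17-fold lower, and the vestibular log2 ratio of -2.63 was -1.91 with the correction. *Kif1b*, a motor of mitochondria and synaptic vesicle precursors, lay between 2032 and 3428 in the 4 libraries and *Kif16b*, a motor of early endosomes, between 301 and 474, and both were called in no comparison. *Kif13b*, the relative of *Kif13a*, was lower in HCs of both organs but under 3-fold apart, from 75 in cochlear HCs to 178 in cochlear ENSCs.

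Kinesin light chains and adaptors link the motors to their cargo, and 15 of them were in the table. In the cochlea 3 were at least 3-fold higher in HCs and 0 lower, against 4 higher and 0 lower in vestibular HCs. With the length and GC correction 4 were higher in cochlear and 5 in vestibular HCs, and 0 lower in either. *Kifap3* had the largest vestibular ratio of this list as deposited. *Madd*, which links Kif1 motors to synaptic vesicle precursors, had the largest cochlear ratio as deposited, with 259 in cochlear HCs, 29 in cochlear ENSCs, 224 in vestibular HCs and 53.5 in vestibular ENSCs, 8.91-fold and 4.18-fold higher in HCs. *Fez1*, an adaptor of conventional kinesin, was at 175 and 21.5 in cochlear HCs and ENSCs, the latter inside the band of ties, so that its ratio of at least 7.7-fold cannot be ranked against that of *Madd*. The light chains themselves stayed under 100: *Klc1* reached 90.25 and *Klc2* 64, both in cochlear HCs, and the correction moved the vestibular log2 ratio of *Klc2* from 0.84 to 2.03, past the threshold.

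Kinesins known for cell division were mostly low. *Kif11*, the motor that keeps spindle poles apart, had 95.75 in vestibular ENSCs and between 21.25 and 23.5 in the other 3 libraries. Vestibular HCs were thus lower by at least 3.14-fold. *Kif23*, which acts at the midzone during cytokinesis, lay at the floor in 3 libraries and at 49 in vestibular ENSCs, and *Kif4* did so too, at 24. In that same library the summed signal of 16 genes of dividing cells was 1448, against 739 in cochlear HCs, 672 in cochlear ENSCs and 981 in vestibular HCs, and 0 of the 16 were at the floor there, against 6 or 7 in each of the others. *Mki67* held much of that sum, and without it the sums were 1034 in vestibular ENSCs, 716 in cochlear HCs, 642.5 in cochlear ENSCs and 952.5 in vestibular HCs. Of the 16 genes 11 were higher in vestibular ENSCs than in vestibular HCs, and 5 were lower there (*Cenpe*, *Cenpf*, *Ect2*, *Anln* and *Nusap1*), such as *Cenpf*, at 130.25 in ENSCs and 252 in HCs. The part of dividing cells in the *Kif11*, *Kif23* and *Kif4* signals was not tested. *Kif20b*, another kinesin of cytokinesis, was at 63.25 in cochlear ENSCs and at the floor in cochlear HCs, a ratio that counts as 3-fold as deposited but is at least 2.61-fold when set against the band of ties.

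*Kif18a* and *Kif15* were higher in the HC library of each organ than in its ENSCs. *Kif15*, a spindle motor, stayed under the threshold, with signals of 60.75 in cochlear HCs, 44.25 in cochlear ENSCs, 60 in vestibular HCs and 26.5 in vestibular ENSCs. *Kif18a* encodes a kinesin that damps the movement of chromosomes at metaphase, and its signals were 175 in cochlear HCs, 88.75 in cochlear ENSCs, 229 in vestibular HCs and 49.5 in vestibular ENSCs. It was 4.62-fold higher in vestibular HCs and 1.97-fold higher in cochlear HCs. *Kif18a* has the lowest GC content of all members, 37.3%, and after correction its vestibular log2 ratio was 1.23 in place of 2.21, under the threshold.

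Of the remaining kinesins, *Kif26b*, a family member without motor activity that acts in development, was at 76.75 and 75 in cochlear and vestibular HCs and at 23.75 and 20 in the ENSCs. It was 3.23-fold higher in cochlear HCs and at least 3.75-fold higher in vestibular HCs, all at signals under 100, and 11.6% of its exonic length overlaps Gm16564 on the opposite strand. The correction moved its vestibular log2 ratio, which rests on an ENSC signal at the floor, from 1.91 to 2.93. *Kif2a*, which takes microtubules apart, had signals of 2385 (cochlear) and 2307 (vestibular) in HCs against 1235 and 838 in the ENSCs and was called in neither organ. Per kilobase of exons it was at 338 in cochlear and 327 in vestibular HCs, close to *Kif21a* at 337 and 332. The minus-end directed motors *Kifc2* and *Kifc3* did not exceed 38, and the correction moved the vestibular log2 ratio of *Kifc2* from 0.45 to 1.71, past the threshold. That call comes from the correction alone, at signals of 30.75 in HCs, just above the band of ties, and 22.5 in ENSCs.

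The tubulin genes need a caution on how reads were placed. Alignment by the authors used only 50 nt from each read, and the coding sequences of some tubulin genes are so alike that such a read has several possible places. The coding sequences of *Tuba1a* and *Tuba1b* were 98.3% identical and those of *Tuba1a* and *Tuba1c* 97.1%. Those of *Tubb2a* and *Tubb2b* were 96.5% identical, and no other pair of beta tubulins of the table exceeded 84.45%. The last 60 coding bases, including the stop codon, of *Tubb2a* and *Tubb2b* are shown because this end encodes the tail in which tubulins differ most, with capitals where the pair differs (NCBIM37, both on the minus strand: *Tubb2a* at chr13:34166337-34166396 and *Tubb2b* at chr13:34219340-34219399).
Tubb2a: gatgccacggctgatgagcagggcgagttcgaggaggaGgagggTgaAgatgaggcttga
Tubb2b: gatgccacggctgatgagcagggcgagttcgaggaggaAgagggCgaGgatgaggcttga

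The pair differed at 3 of these 60 bases. Of 50-base stretches of exons, taken every 5 bases, 26.8% of *Tuba1a*, 13.9% of *Tuba1b*, 36.1% of *Tuba1c*, 44.4% of *Tubb2a*, 40.2% of *Tubb2b* and 57.8% of *Tubb4b* occurred at 1 place of the genome only. For *Tuba4a*, *Tubb4a* and *Tubb5* the share was 98.1%, 99.8% and 98.4%, and 85.8%, 94.9% and 89.2% when places with up to 2 mismatches are counted as well. Most such reads of these 3 genes thus have 1 place in the genome. How the counts treated reads with several places is not stated, and the split of signal among *Tuba1a*, *Tuba1b* and *Tuba1c* and between *Tubb2a* and *Tubb2b* is uncertain. Of the 5 tubulins lower in vestibular HCs, *Tuba4a*, *Tubb4a* and *Tubb5* have nearly all stretches unique for exact matches.

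**Figure D3:**
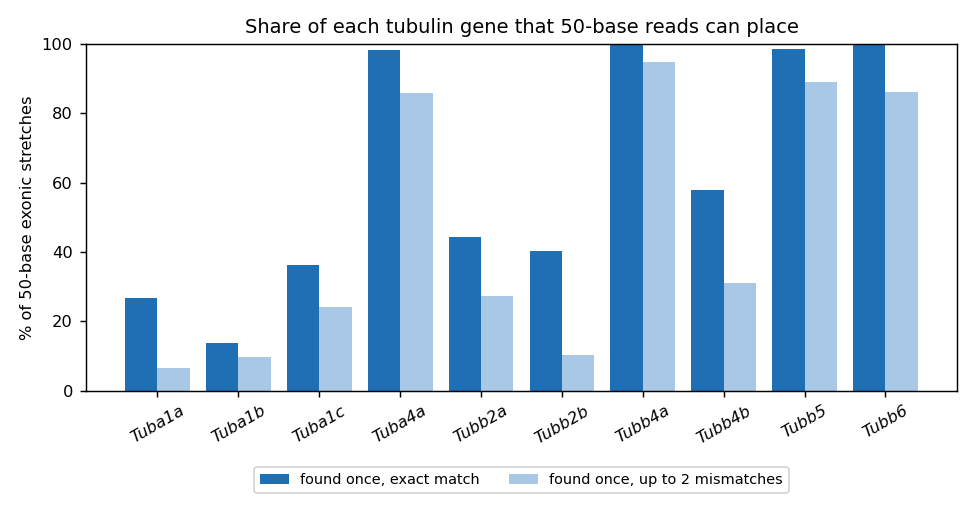
Percentage of 50-base exonic stretches of each alpha and beta tubulin gene that occur at 1 place of the mouse genome, for exact matches (dark bars) and when places with up to 2 mismatches are counted as well (light bars). *Tuba1b* has the lowest exact share, 13.9%, and *Tuba4a*, *Tubb4a*, *Tubb5* and *Tubb6* lie above 98%.

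*Tuba1a* dominated the alpha tubulins. Its signals were 9225 in cochlear HCs, 7012 in cochlear ENSCs, 6829.5 in vestibular HCs and 6856 in vestibular ENSCs, which made it the highest member per kilobase in every library. Its vestibular log2 ratio of HCs to ENSCs was -0.01 as deposited and 0.59 with the correction, both under the threshold. Of the summed alpha-tubulin signal per kilobase it took 98.2%, 94.1%, 97.1% and 75.9% in the same order. The 3 other alpha tubulins of the table were low in both HC libraries and highest in vestibular ENSCs.

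*Tuba1b* had signals of 94 and 265 in cochlear HCs and ENSCs and 100 and 836 in vestibular HCs and ENSCs, so that it was 2.82-fold lower in cochlear HCs and 8.36-fold lower in vestibular HCs. *Tuba1c* was lower in HCs of both organs, with 27.5 against 191 in the cochlea (6.94-fold) and 34 against 614 in the vestibular system (18-fold), the largest ratios in that direction of all members as deposited. *Tuba4a* was at 78.5, 57.25 and 107 in cochlear HCs, cochlear ENSCs and vestibular HCs and at 1158 in vestibular ENSCs. Its high value was thus that of 1 library, the one with the highest *Kdr*, *Col1a1* and *Mki67*, and was 10.8-fold above vestibular HCs and 20.2-fold above cochlear ENSCs. With the correction the vestibular log2 ratios of HCs to ENSCs were smaller and still past the threshold, at -2.17 in place of -3.06 for *Tuba1b*, -3.17 in place of -4.17 for *Tuba1c* and -2.81 in place of -3.43 for *Tuba4a*. Exons of *Tuba4a* overlap those of *Stk16* on the opposite strand over 30.8% of their length, so that without strand the reads of that stretch cannot be told apart.

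Among the beta tubulins, *Tubb2b* and *Tubb5* changed places between the populations. Both contribute to the microtubules of young neurons, and *Tubb5* is the more widely expressed (NCBIM37 chr13:34218877-34222223, minus strand for *Tubb2b* and chr17:35970871-35975251, minus strand for *Tubb5*). *Tubb2b* signals were 3567 in cochlear HCs, 1243 in cochlear ENSCs, 1416 in vestibular HCs and 202 in vestibular ENSCs. Those of *Tubb5* were 265, 807, 190.25 and 1848. *Tubb2b* was thus 2.87-fold and 7.02-fold above the matching ENSCs in cochlear and vestibular HCs, and *Tubb5* was 3.04-fold and 9.71-fold lower. The vestibular log2 ratio of *Tubb2b* was 2.81 as deposited and 3.41 with the correction. In the cochlea both lay close to the threshold, and correction for length and GC content moved *Tubb2b* past it (log2 ratio 1.71) and *Tubb5* under it (log2 ratio -1.49).

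Of the summed beta-tubulin signal per kilobase of exons, *Tubb2b* took 83.4% in cochlear HCs, 55.2% in cochlear ENSCs, 68.5% in vestibular HCs and 10.4% in vestibular ENSCs, and *Tubb5* took 3.59%, 20.7%, 5.32% and 54.9%. Counted per kilobase of exons found once in the genome, a scale added after the values were seen, the share of *Tubb2b* was 87.1%, 66.6%, 75.7% and 19.7% and that of *Tubb5* 1.53%, 10.2%, 2.40% and 42.5%. On both scales *Tubb2b* was the largest beta tubulin in both HC libraries and in cochlear ENSCs, and *Tubb5* in vestibular ENSCs.

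**Figure D4:**
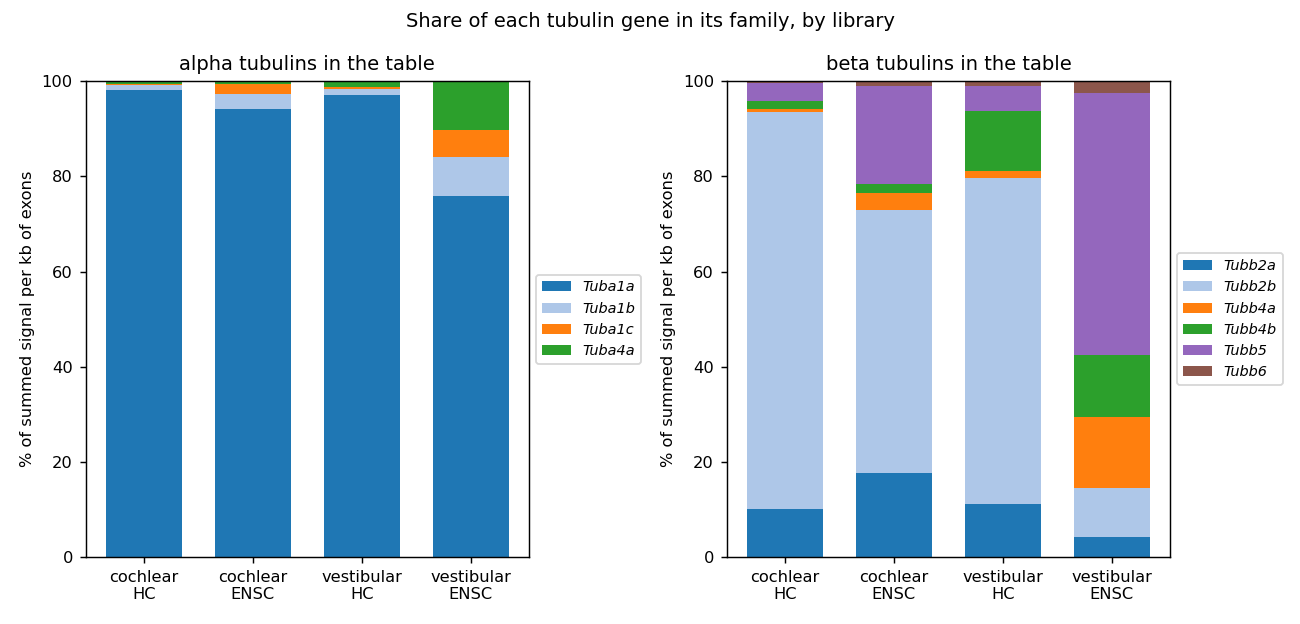
Stacked bars give the percentage that each alpha tubulin (left) and each beta tubulin (right) of the table takes of its family's summed signal per kilobase of exons in the 4 libraries. *Tuba1a* fills 94.1% or more of the alpha bars except in vestibular ENSCs (75.9%), and *Tubb5* takes 54.9% of the beta bar in vestibular ENSCs.

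*Tubb2a*, the near-copy of *Tubb2b*, had signals of 359 in cochlear HCs, 331 in cochlear ENSCs, 191 in vestibular HCs and 68.5 in vestibular ENSCs. It was 2.79-fold higher in vestibular HCs as deposited, and its log2 ratio rose from 1.48 to 2.44, past the threshold, with the correction. *Tubb4a* was lower in HCs of both organs, with 23.5 against 94.25 in the cochlea (at least 3.89-fold) and 35.25 against 336 in the vestibular system (9.52-fold, a log2 ratio of -3.25 that was -2.13 with the correction). *Tubb4b*, a beta tubulin of cilia, differed more by organ than by cell type. It was at 85.25 and 43 in cochlear HCs and ENSCs and at 279 and 276 in vestibular HCs and ENSCs. It was 3.28-fold higher in vestibular than in cochlear HCs and 6.42-fold higher in vestibular than in cochlear ENSCs. *Tubb6* left the floor in vestibular ENSCs only, at 44.75. The gamma tubulins *Tubg1* and *Tubg2*, which nucleate microtubules, did not exceed 44.75.

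The 2 ENSC libraries were compared with each other to see which members differ between the organs outside HCs. Here 2 members were higher in the cochlea by 3-fold or more, where 7.8% of all genes were, and 7 at least 3-fold lower, where 7.94% of all genes were. The 2 higher ones were *Tubb2b* (6.16-fold) and *Tubb2a* (4.82-fold), whose reads can share places. The 7 lower ones were *Kif19a*, *Kif11*, *Tuba1b*, *Tuba1c*, *Tuba4a*, *Tubb4a* and *Tubb4b*. Ratios of this comparison fell with GC content across all genes (rho = -0.453 over the 10475 genes that exceeded the floor in both), the median GC content was 55.5% for the 12 tubulins against 48.8% for all genes, and after correction 4 of the 7 stayed past the threshold: *Kif19a* (log2 ratio -3.42 in place of -4.35), *Kif11*, *Tuba4a* and *Tubb4b*. Under it came *Tuba1b* (-1.02 in place of -1.66), *Tuba1c* (-0.96 in place of -1.69) and *Tubb4a* (-1.02 in place of -1.83), and 4.91% of all genes were lower in this comparison after correction. *Tubb2b* and *Tubb2a* stayed higher, where 7.61% of all genes were, and *Tubb2a* went from 2.27 to 2.97. The comparison shares its libraries with those of HCs and ENSCs above, so that a high signal in vestibular ENSCs enters both.

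**Figure D5:**
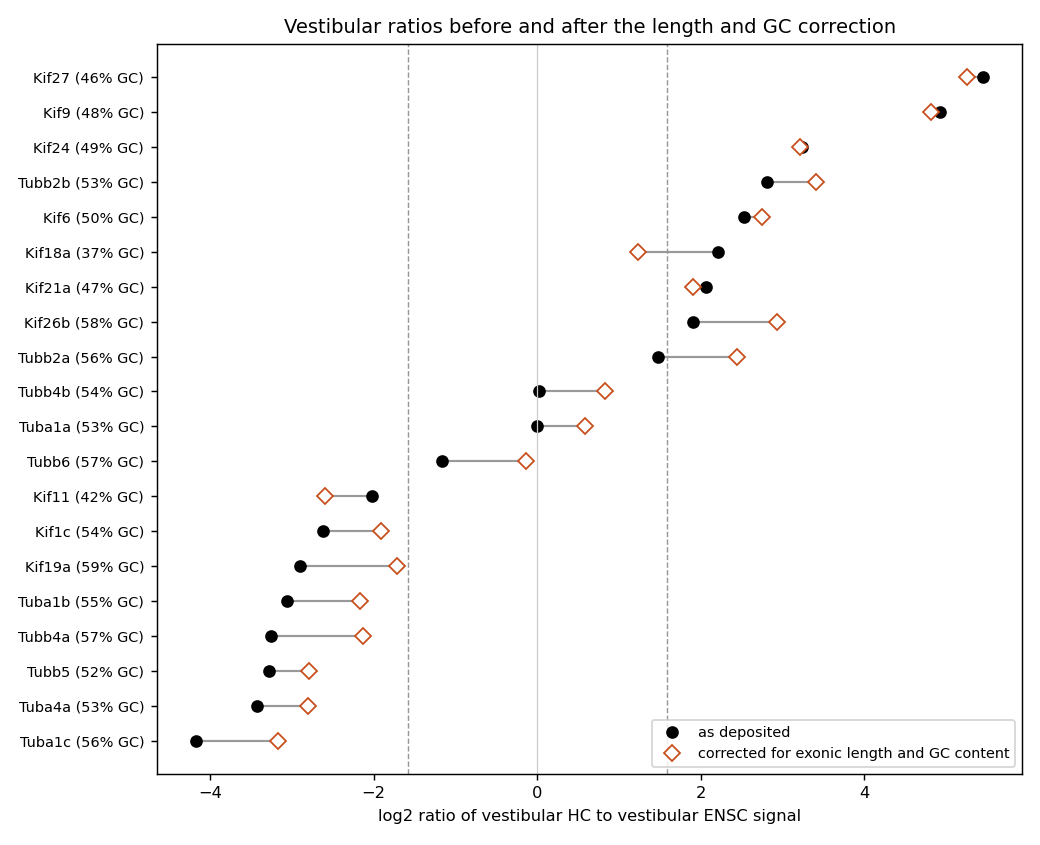
Log2 ratio of vestibular HC to vestibular ENSC signal for the alpha and beta tubulins and for the kinesins at least 3-fold apart, as deposited (filled circles) and after correction for exonic length and GC content (open diamonds), with the GC content of the exons beside each name and dashed lines at 3-fold. The correction shifts most tubulins to the right, leaves the 5 lower ones past 3-fold and takes *Kif18a* inside it.

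Genes that act on the same microtubules were counted by list. Of 20 tubulin-modifying enzymes in the table, which add or remove glutamate, glycine, tyrosine or acetyl groups, 8 were at least 3-fold higher and 3 lower in vestibular HCs, and 5 were higher and 3 lower in cochlear HCs. With the correction the vestibular counts were 6 and 2 and the cochlear ones again 5 and 3. The largest vestibular ratios as deposited were those of *Ttll7*, a glutamate ligase, with 2519 in HCs and 144 in ENSCs (17.5-fold), and of the carboxypeptidases *Agbl2*, with 1020.25 and 60 (17-fold), and *Agbl4*, with 204 and 20, the latter at the floor. In the cochlea *Ttll7* was at 1134 in HCs and 236 in ENSCs. Of 32 microtubule-associated and severing proteins, 5 were higher and 4 lower in cochlear HCs and 7 higher and 2 lower in vestibular HCs, and with the correction 8 and 4 in the cochlea and again 7 and 2 in the vestibular system. *Dclk1*, a doublecortin-like kinase that binds microtubules, was the farthest of these in both organs, with 503 in cochlear HCs, 8314 in cochlear ENSCs, 245 in vestibular HCs and 9696 in vestibular ENSCs, 16.5-fold and 39.6-fold lower in HCs. *Mtap9*, which binds spindle and ciliary microtubules, went the other way, 3.38-fold and 11.7-fold higher in cochlear and vestibular HCs.

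The 20 tubulin folding cofactors gave 0 calls in the cochlea, and 3 of them were lower by 3-fold or more in vestibular HCs, the farthest of them *Pfdn5*, at 59.5 in HCs and 386 in ENSCs. With the correction *Pfdn5* kept its call, *Tbcb* (45.5 against 189.5) and *Arl2* (23.75, inside the band of ties, against 97) lost theirs, and *Tbcc*, at the floor in both ENSC libraries, was called higher. Of 14 genes of the gamma-tubulin ring and of nucleation, 1 was higher in cochlear HCs (*Cdk5rap2*, 1149.5 against 361) and 1 lower in vestibular HCs as deposited (*Tubgcp6*, 21.75 against 66.25, the first of them inside the band of ties). With the correction *Cdk5rap2* went from a log2 ratio of 1.67 to 1.51, just under the threshold, and *Tubgcp6* lost its call as well. Of 22 genes of cytoplasmic dynein and dynactin, the motor that walks the other way, 3 were higher and 1 lower in cochlear HCs and 2 higher and 4 lower in vestibular HCs. The lower cochlear gene, *Nde1*, crossed the threshold with little change under the correction (log2 ratio -1.67, corrected -1.55), and 0 of the 4 lower vestibular genes kept their call, the farthest of them, *Dctn2*, going from -1.99 to -0.96. The correction gave 4 higher in cochlear and 2 in vestibular HCs. The shares of all genes given above for each organ, as deposited and corrected, are the background of these counts.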

How the data were processed

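RNA from 4 populations of sorted cells was amplified (NuGEN Ovation) and sequenced. The labels give the molecule as polyadenylated RNA. Source names gave the groups, titles tied each column to its sample, and a non-HC column was read as the ENSC sample of its organ. The design text speaks of triplicates, which the methods of the paper give for the microarrays, whereas the table holds 1 column per population. Whether replicates were combined in a column is not stated.

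The table deposited by the authors gives a signal for each gene. They used TopHat to place 50 nt from the start of each read on mm9 and HTSeq to count reads over ENSEMBL genes, followed by quantile normalization and a floor of 20. The paper gives the floor as the last step, whereas the bands of ties above 20 look like a floor set before the normalization. Versions, strand and the handling of reads with several places are not given in the sources used here. Sorted values were identical in the 4 columns, so depth is unknown and a shift of all genes between cell types cannot be seen.

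From these values log2 ratios were computed with no pseudocount for 4 contrasts (HC to ENSC in each organ, cochlear to vestibular HCs and cochlear to vestibular ENSCs), and ratios of at least 3 either way were counted over members and over all 12814 genes. The top of the band of tied low values was set where the highest signal of the genes in the other libraries, taken as a median per value, stopped rising and collapsed. Exonic length, GC content and positions came from GENCODE for NCBIM37, which is mm9 and held 12799 of the gene identifiers. Ratios were corrected for local trends on length and then GC content (lowess over 0.3 of the genes, 2 robust iterations, statsmodels 0.14.6), and this step was tested on simulated data. Uniqueness was searched over the NCBIM37 genome in 50-base stretches every 5 bases, with exact matches and with up to 2 mismatches. Python 3.11.15, pandas 2.3.3 and numpy 2.4.6 were used.

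The members, the gene lists and the alternatives were chosen with earlier results of these data known. Signals in all libraries were printed for members at least 3-fold apart between HCs and ENSCs of either organ or between the HC populations with 100 or more in the higher library, and for all alpha and beta tubulins. Other members were given by range or single values, and of genes that are no members, at most the 3 largest ratios each way per list with 200 or more in the higher library. *Kif1a*, *Kif2a*, *Kif3a*, *Kif5a*, *Kif15* and *Kif26b* were given with all signals beside that rule, and they, *Klc1*, *Klc2*, *Fez1*, *Tbcb*, *Tbcc*, *Arl2*, *Tubgcp6*, *Nde1*, *Dctn2* and the marker genes were singled out with their values already known. The sums without 1 gene were added after the data had been seen. The alternatives were a floor of 100, a pseudocount of 20, a threshold of 2, tied values raised to the top of their band, the length and GC correction, centring on the median ratio, and a signal of at least 100 in 1 library. Some items are not reported here.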

Additional observations from a re-analysis of the deposited data

Results flagged for a closer look

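*Kif19a* was the 1 named member called in opposite directions in the 2 organs. Its log2 ratio of HC to ENSC signal was 1.65 for the cochlea and -2.90 for the vestibular system, from signals of 296 and 94.5 in cochlear HCs and ENSCs and 257 and 1925 in vestibular HCs and ENSCs. With 1 library per population the difference between the organs was not tested. Corrected for length and GC content the ratios were 1.79 and -1.72. The cochlear ratio was under the threshold with a pseudocount of 20 (1.46) and with signals under 100 raised to 100 (1.57).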

How the results depend on the processing

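No ratio of the 42 members past the threshold changed its sign under any alternative run, but several fell under the threshold. With the length and GC correction the median vestibular log2 ratio of the 12 tubulins went from -0.68 to 0.22, and among the ratios under the threshold that of *Tuba1a* in the vestibular system went from -0.01 to 0.59. The vestibular median of the 9 tubulins with 100 or more in any library went from -3.06 to -2.13. Raising every signal under 100 to 100 left 4 members higher and 2 lower in cochlear HCs (in place of 9 and 5), 4 higher in vestibular HCs (in place of 8) and 0 lower in cochlear than in vestibular HCs (in place of 1). A pseudocount of 20 left 5 higher and 2 lower in cochlear HCs, and 1 higher and 0 lower in cochlear than in vestibular HCs (in place of 2 and 1). A threshold of 2 gave 14 members higher in vestibular HCs, 5 higher and 3 lower in cochlear than in vestibular HCs, and 11 lower in cochlear than in vestibular ENSCs (in place of 7). With the members restricted to signals of 100 or more in 1 library of the contrast, 3 members were lower in cochlear HCs. The length and GC correction left 4 members lower in cochlear than in vestibular ENSCs and moved the median vestibular log2 ratio of HCs to ENSCs from 0.06 to 0.67. The calls lost with the floor of 100 included *Kif24* in both organs (log2 ratios 0.81 and 1.40), *Kif26b* in both, *Kif9* (1.52), *Kif19a* (1.57), *Tuba1c* (-0.93) and *Tubb4a* in the cochlea, and *Kif6* (0.20), *Kif18a* (1.19) and *Kif11* in the vestibular system, and those lost with the pseudocount included *Kif13a* (1.57), *Kif19a* (1.46), *Tubb4a* (-1.39) and *Tubb5* (-1.54) in the cochlea. The lower counts under a floor or a pseudocount follow from their construction, since low signals are drawn together. Other counts of members stayed within 1.5 times. No paired analysis was possible because each population had 1 library, and no library could be left out. The depth behind the signals is unknown, and reads of 50 nt can have places in several near-identical tubulin genes.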

Other observations

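The 42 members together took 0.444% of the summed signal in cochlear HCs, 0.289% in cochlear ENSCs, 0.383% in vestibular HCs and 0.339% in vestibular ENSCs, on a scale that is not divided by gene length. Beside *Kif19a*, 5 members had ratios of HCs to ENSCs on opposite sides of 1 in the 2 organs. Of these *Tuba4a* was the farthest apart, at a log2 ratio of 0.46 for the cochlea and -3.43 for the vestibular system, followed by *Kif1a* with 0.61 and -1.23 (the latter -0.47 with the length and GC correction). In both genes the cochlear and the vestibular HC signals were under 2-fold apart, at 78.5 and 107 for *Tuba4a* and at 732 and 471 for *Kif1a*, and vestibular ENSCs held the highest signal of the 4 libraries. The remaining 3, *Kif16b*, *Kif1b* and *Tuba1a*, had log2 ratios between -0.24 and 0.40.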
